A study of Cavia porcellus with 13 samples.

Results

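Skin taken from guinea pigs after 3 tick exposures was compared with skin taken after 2 exposures, using RNA sequencing of 4 of the 13 libraries of the study. The 3 bites group and the 2 bites group had 2 libraries each, both of bitten skin sampled on day 4 after tick attachment. One naive library of the same experiment, from unbitten skin with the same day on its label, is given beside them as naive replicate 3. The other 8 libraries formed a second experiment with first exposure, saliva immune and naive skin. They entered the fit only to estimate the spread between libraries. The labels name the skin, the number of bites and the day, but not the hour of sampling, the tick or the interval between exposures. Nor is it stated that each library is a different animal, and the p-values therefore reflect the spread among these libraries, part of which may be technical.

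Of the 26855 genes in the deposited table, 14079 reached 1 TPM in at least 2 of the 4 libraries. TPM is the length-scaled share that a gene takes of all transcripts in a library. Genes are reported where the libraries did not overlap, that is, where both libraries of one group lay above both of the other on log2(TPM + 1). This left 6791 genes. A gene under 1 TPM in both libraries of a group could pass the filter only if both libraries of the other group reached 1 TPM. For such a gene the filter alone set the separation and its direction, so its separation is no evidence.

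Guinea pigs are a classic model of acquired tick resistance, in which an animal bitten before reacts more strongly at the bite and ticks feed less well. Work in this and other hosts has linked the reaction to T cells, basophils, mast cells and histamine. A tick bite is also a wound, where neutrophils and macrophages arrive, proteases and their inhibitors remodel the matrix, and keratinocytes, the cells of the epidermis, close the surface.

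The libraries held the transcripts of whole skin. Keratins of the basal and upper epidermis, fibroblast collagens, endothelial, hair follicle, sebocyte, adipocyte and skeletal muscle markers were present, with 18 of the 21 marker genes sought in the table. Hair follicle genes made up 3.58% and 2.70% of summed TPM in 3 bites skin and 1.40% and 4.56% in 2 bites skin. Fibroblast and matrix genes made up 1.47% and 0.586% in 3 bites skin and 1.41% and 0.869% in 2 bites skin. Melanocyte genes took 0.0062% in 3 bites replicate 1 and 0.0285% in 3 bites replicate 2, against 0.0190% and 0.0308% in 2 bites skin, and 6 of 15 of them were listed at 0 in 3 bites replicate 1. Between 13715 and 13999 genes per library reached 1 TPM, and the depth is unknown because TPM keeps no record of it. Pearson's r across tested genes, which are not independent replicates, was 0.957 within 3 bites skin, 0.968 within 2 bites skin and 0.930 to 0.969 between the groups.

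More genes stood higher than lower in 3 bites skin. Without overlap, 5157 genes (36.6% of those tested) were higher and 1634 (11.6%) lower, 48.2% together. With 2 libraries against 2, a gene without any difference separates with a probability of 0.3333, so many genes would separate anyway. Genes also vary together, which can move the share of 1 comparison either way. The direction of the split into higher and lower genes depended on the scaling. Over all tested genes the log2 difference had a median of 0.14, and after median-of-ratios scaling, which sets the typical gene level between libraries, it was -0.04. The same count was then 3027 higher (21.5%) and 3601 lower (25.6%), so that the higher share of genes without overlap was 45.7% instead of 75.9%. A gap of at least 2-fold between the nearest libraries left 121 genes (0.859%), 75 higher (0.533%) and 46 lower (0.327%), a split that median-of-ratios scaling turned to 42 higher and 66 lower.

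No gene passed the test across all genes. limma, a linear model with a shared estimate of the spread, called 0 of 14079 genes at an adjusted p under 0.05, and the smallest adjusted p was 0.164. Before adjustment, a p under 0.05 was found for 1202 higher genes (8.54%) and 382 lower genes (2.71%), 1584 together. No difference at all would give 704 on average. Genes vary together, so the count of 1 comparison can lie far from that average, and no conclusion is drawn from the excess. Without 3 bites replicate 2 there were 4 calls, all lower: MRPS36 and the pigment cell genes TYR, MLANA and SLC45A2. All 4 genes were at or near 0 in 3 bites replicate 1, and the pigment cell genes overlapped between the groups when both 3 bites libraries were used. Without 2 bites replicate 2 there was 1, GREM1 (limma adjusted p = 0.03004). With 2 libraries against 2, the smallest exact two-sided permutation p for a single gene is 0.3333. The values below therefore describe these 4 libraries. At the edge of the rule, a gene close inside had 16.39993 and 7.26369 TPM in 3 bites skin against 7.26256 and 5.68044 in 2 bites skin. MPG was just outside, with 6.81163 and 5.91179 TPM in 3 bites skin against 6.81162 and 6.84302 in 2 bites skin.

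**Figure D1:**
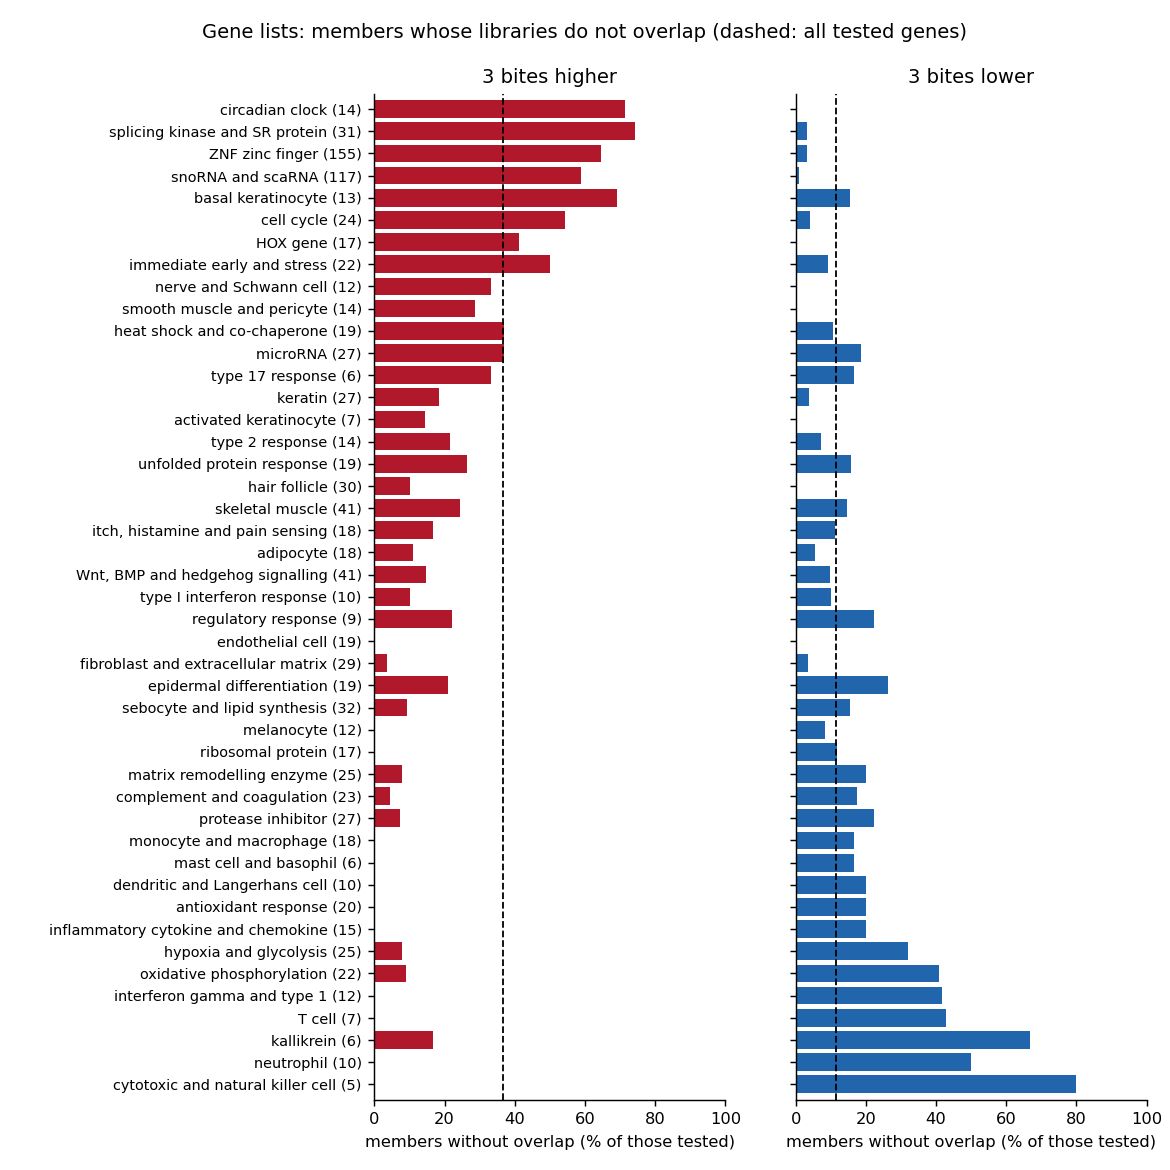
Share of each gene list, in percent of its tested members (number in brackets), whose libraries did not overlap, higher in 3 bites skin on the left and lower on the right. Dashed lines mark the shares over all 14079 tested genes, 36.6% higher and 11.6% lower; clock, splicing, zinc finger and small nucleolar RNA genes stand at the top, and neutrophil, cytotoxic cell, T cell and kallikrein genes at the bottom.

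Those neutrophil, macrophage, T cell and natural killer cell genes whose libraries separated stood lower in 3 bites skin. The neutrophil list had 5 of 10 tested members lower without overlap (50%) and 0 higher, with a median log2 difference of -0.90 against 0.14 over all tested genes. The monocyte and macrophage list had 3 of 18 lower (16.7%, near the 11.6% of all tested genes) and 0 higher (median -0.99). The T cell list had 3 of 7 lower (42.9%) and 0 higher (median -0.44). The cytotoxic and natural killer cell list had 4 of 5 lower (80%) and 0 higher (median -0.72). Those 4 members, CST7, CTSW, GZMK and NCR1, reached 1 TPM in the 2 bites libraries only. The filter thus fixed their direction in advance, and no conclusion is drawn from the count of that list. With median-of-ratios scaling the lower counts were 6, 6, 5 and 4, again with 0 higher. The B cell and plasma cell list, with 4 tested members, had 2 higher and 1 lower, or 0 and 3 after that scaling. In bulk skin, fewer cells of a type and less RNA per cell cannot be told apart.

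MMP9, a gelatinase stored in neutrophil granules and also made by macrophages and keratinocytes, had 4.87 and 1.00 TPM in 3 bites skin against 15.5 and 26.6 TPM in 2 bites skin, with 2.56 in naive replicate 3. Both 2 bites libraries lay at least 2-fold above both 3 bites libraries (log2 difference -2.64, SE 0.62, limma adjusted p = 0.307). Cxcr1, a receptor for neutrophil-attracting chemokines, had 2.98 and 1.66 TPM in 3 bites skin against 20.9 and 4.27 in 2 bites skin, and 3.21 in the naive library. Here 2 bites replicate 1 stood apart, and 2 bites replicate 2 lay close to the naive value. CSF3R, the receptor for the growth factor of granulocytes, had 0.198 and 0.756 TPM in 3 bites skin against 3.48 and 1.02 in 2 bites skin and was listed at 0 in the naive library. It passed the filter through the 2 bites libraries only. The summed share of the neutrophil list did not separate the groups, at 0.0235% and 0.0642% in 3 bites skin against 0.0636% and 0.0589% in 2 bites skin, and 3 and 5 of its 17 genes were listed at 0 in 3 bites skin, against 2 and 3 in 2 bites skin. The median difference of the list was -0.56 without 2 bites replicate 1 and -1.47 without 2 bites replicate 2.

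C1QA, a chain of the first complement component that tissue macrophages make, had 48.6 and 7.89 TPM in 3 bites skin against 207 and 88.1 in 2 bites skin, and 21.3 in the naive library (log2 difference -2.69, SE 0.91, limma adjusted p = 0.362). TYROBP, a signalling adaptor of myeloid cells, had 37.4 and 22.2 TPM in 3 bites skin and 82.5 and 39.4 in 2 bites skin. For TYROBP the nearest libraries of the groups almost met. The macrophage list took 0.0930% and 0.0351% of summed TPM in 3 bites skin and 0.160% and 0.0767% in 2 bites skin, so its sum overlapped between the groups. Its median difference was -0.18 without 3 bites replicate 2, -0.41 without 2 bites replicate 1, -1.69 without 3 bites replicate 1 and -1.57 without 2 bites replicate 2.

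C5AR2, a receptor for the complement fragment C5a, had 0.630 and 0.589 TPM in 3 bites skin against 5.86 and 2.69 in 2 bites skin, and 0.928 in the naive library (log2 difference -1.64, SE 0.30, limma adjusted p = 0.307). C5ar1, the signalling receptor for the same fragment, had 1.66 and 0.236 TPM in 3 bites skin and 6.59 and 1.93 in 2 bites skin. Both receptors stood lower in 3 bites skin, C5AR2 with the wider gap, but C5AR2 passed the filter through the 2 bites libraries only. The complement and coagulation list as a whole had 4 of 23 members lower (17.4%, against 11.6% of all tested genes) and 1 higher, the higher one being THBD, the anticoagulant thrombomodulin. Its median of -0.68 was -0.02 without 3 bites replicate 2, -0.15 without 2 bites replicate 1, -1.55 without 3 bites replicate 1 and -1.04 without 2 bites replicate 2.

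Among lymphocyte genes, CD3D, a chain of the T cell receptor complex, had 1.03 and 1.98 TPM in 3 bites skin against 5.52 and 3.32 in 2 bites skin, and 2.08 in the naive library. CD3E, another chain of that complex, had 3.24 and 2.92 TPM in 3 bites skin against 9.44 and 3.80 in 2 bites skin. GZMK, a granzyme of cytotoxic lymphocytes, had 0.591 and 0.194 TPM in 3 bites skin against 1.55 and 1.34 in 2 bites skin, and NCR1, a receptor of natural killer cells, had 0.545 and 0.332 TPM against 1.3 and 1.01. These levels were low, and of the 4 libraries compared 2 bites replicate 1 was the highest for each. Without that library the T cell median was -0.12, and without 2 bites replicate 2 it was -1.0. CCR7, the receptor that guides dendritic and T cells to lymph nodes, had 0.739 and 0.454 TPM in 3 bites skin and 1.77 and 1.29 in 2 bites skin. Like GZMK and NCR1, CCR7 passed the filter through the 2 bites libraries only. It belongs to the dendritic and Langerhans cell list, with a median of -0.02. Of its 10 tested members 2 stood lower (20%, against 11.6% of all tested genes), 0 higher and 8 overlapped.

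Of the mast cell and basophil list, 1 of 6 tested members separated (16.7% lower, against 11.6% of all tested genes). HDC, the enzyme that makes histamine, had 1.54 and 0.338 TPM in 3 bites skin against 3.79 and 4.04 in 2 bites skin, and 0.248 in the naive library (log2 difference -1.41, SE 0.32, limma adjusted p = 0.307). The 2 bites libraries agreed closely and the 3 bites libraries lay between them and the naive one. HRH2, a histamine receptor, had 3.49 and 3.26 TPM in 3 bites skin against 17.1 and 4.57 in 2 bites skin, with 3.76 in the naive library, so that its separation was wide in 1 library only. The summed mast cell share overlapped, at 0.0056% and 0.0065% in 3 bites skin against 0.0079% and 0.0053% in 2 bites skin, and the list's median of -0.51 was -0.13 without 3 bites replicate 2, -0.23 without 2 bites replicate 1 and -0.91 without 3 bites replicate 1. The eosinophil list had 1 tested member, which overlapped.

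Of the interferon gamma and type 1 list 5 of 12 members stood lower (41.7%, against 11.6% of all tested genes) and 0 higher. The other members went both ways, and the list's median was -0.01, or 0.37 without 3 bites replicate 1 and -0.32 without 3 bites replicate 2. The type I interferon list had 1 of 10 higher and 1 lower, with a median of 0.07. That was 10% each way, against 36.6% higher and 11.6% lower over all tested genes. GBP1, a guanylate-binding protein induced by interferon gamma, had 2.04 and 1.58 TPM in 3 bites skin against 6.19 and 7.27 in 2 bites skin, and 2.41 in the naive library. SOCS1, a feedback inhibitor of interferon signalling, had 6.12 and 6.97 TPM in 3 bites skin against 14.5 and 12.7 in 2 bites skin, and 5.44 in the naive library (log2 difference -0.95, SE 0.23, limma adjusted p = 0.308). For both genes the 3 bites libraries lay near the naive one. SOCS3, which restrains signalling by interleukin 6 and related cytokines, had 27.2 and 32.8 TPM in 3 bites skin against 147 and 51.2 in 2 bites skin, with 26.6 in the naive library. Ccl5, a chemokine for T cells and eosinophils, had 1.63 and 3.06 TPM in 3 bites skin and 4.41 and 7.02 in 2 bites skin. The inflammatory cytokine and chemokine list had 3 of 15 lower (20%, against 11.6% of all tested genes) and 0 higher. Its median of -0.30 was 0.40 without 2 bites replicate 1 and -0.05 without 3 bites replicate 1.

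IL24, a cytokine of the interleukin 10 family that acts on keratinocytes, was listed at 0 in both 3 bites libraries and in the naive one, against 1.77 and 1.87 TPM in 2 bites skin. It thus passed the filter through the 2 bites libraries only. Of the type 2 response list, the arm of immunity that involves interleukins 4 and 13, 3 of 14 members (21.4%) stood higher and 1 (7.14%) lower, both shares below those of all tested genes (36.6% and 11.6%). POSTN, a matrix protein induced by interleukin 13, had 503 and 221 TPM in 3 bites skin against 138 and 139 in 2 bites skin, and 267 in the naive library (log2 difference 1.26, SE 0.38, limma adjusted p = 0.336). ARG1, arginase 1, had 31.6 TPM in each 3 bites library against 21.1 and 15.2 in 2 bites skin. GATA3, a transcription factor of type 2 T cells that is also strong in epidermis and hair follicle, had 246 and 470 TPM in 3 bites skin against 183 and 234 in 2 bites skin, and its libraries overlapped after median-of-ratios scaling. IL4R, a receptor chain for interleukins 4 and 13, was lower, with 66.0 and 73.7 TPM in 3 bites skin against 98.6 and 77.5 in 2 bites skin.

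**Figure D2:**
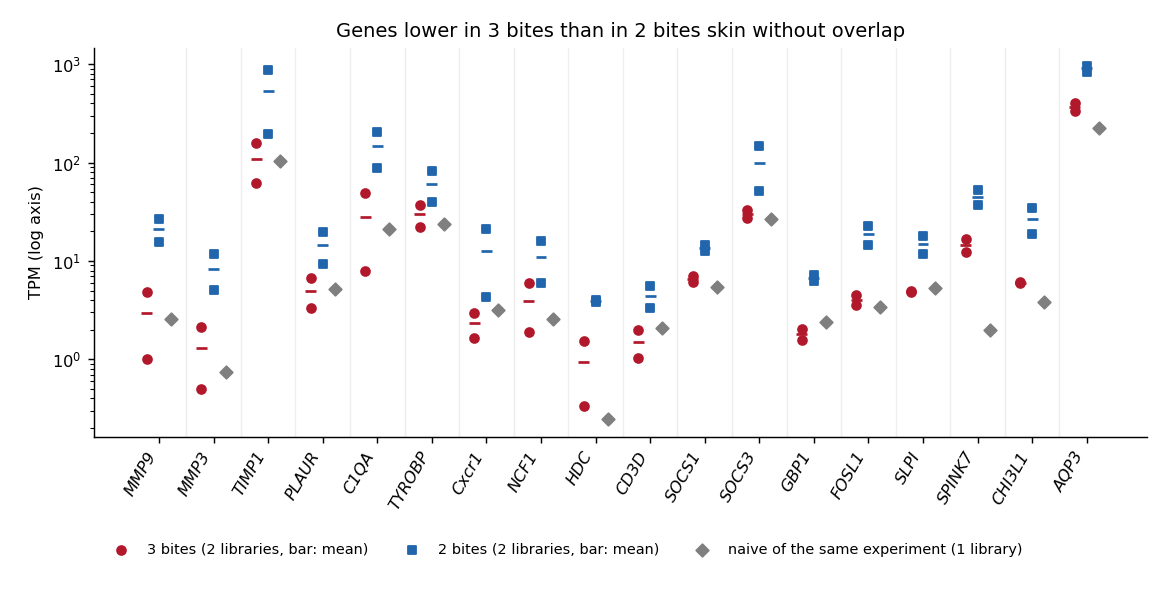
TPM on a log axis of 18 genes that stood lower in 3 bites skin without overlap, with a point for each library and a bar at the mean of each group of 2. For MMP9, FOSL1 and AQP3 the groups are widely apart, for TIMP1 and SOCS3 2 bites replicate 1 stands far above the rest, and NCF1 is separated by a margin too small to see.

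Matrix proteases and their inhibitors act in wounds, and of 25 tested matrix remodelling genes 5 (20%) were lower and 2 (8%) higher, against 11.6% and 36.6% of all tested genes. TIMP1, the main tissue inhibitor of matrix metalloproteinases, had 158 and 61.4 TPM in 3 bites skin against 884 and 196 in 2 bites skin, and 104 in the naive library. Its log2 difference was -2.07 (SE 0.67, limma adjusted p = 0.356), 2 bites replicate 1 stood far above the rest, and 2 bites replicate 2 lay much nearer to the 3 bites libraries. PLAUR, the urokinase receptor, had 6.66 and 3.34 TPM in 3 bites skin and 19.6 and 9.25 in 2 bites skin. MMP3, stromelysin 1, had 2.13 and 0.503 TPM in 3 bites skin against 5.02 and 11.7 in 2 bites skin. ADAM8, a membrane protease, was higher, with 11.4 and 24.1 TPM in 3 bites skin against 9.07 and 7.44 in 2 bites skin. The median of the matrix remodelling list was -0.45, but 0.09 without 3 bites replicate 2 and also 0.09 without 2 bites replicate 1, and -1.12 without 3 bites replicate 1.

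SLPI, a secreted inhibitor of neutrophil elastase, had 4.98 and 4.82 TPM in 3 bites skin against 18.0 and 11.8 in 2 bites skin, and 5.28 in the naive library (log2 difference -1.40, SE 0.27, limma adjusted p = 0.307). SPINK7, a Kazal-type inhibitor of serine proteases in epithelia, had 16.7 and 12.4 TPM in 3 bites skin against 52.3 and 36.8 in 2 bites skin, and 1.99 in the naive library. The 3 bites level of SLPI was that of unbitten skin, whereas SPINK7 stood above it in both groups. CHI3L1, a chitinase-like protein of inflamed tissue, had 5.95 and 6.10 TPM in 3 bites skin against 34.5 and 18.7 in 2 bites skin, and 3.80 in the naive library. Protease inhibitors, a list put together after the values were seen, had 6 of 27 members lower (22.2%) and 2 higher (7.41%). Over all tested genes these shares were 11.6% and 36.6%. The median of the list was -0.13, or 0.02 without 2 bites replicate 1 and -0.32 without 2 bites replicate 2. TNC, the wound matrix protein tenascin C, had 29.7 and 21.4 TPM in 3 bites skin against 57.9 and 42.8 in 2 bites skin, and 9.02 in the naive library. GREM1, an antagonist of bone morphogenetic proteins, had 5.66 and 4.99 TPM in 3 bites skin against 104 and 10.5 in 2 bites skin, again with 2 bites replicate 1 far above the rest.

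Several genes of the epidermis itself stood lower in 3 bites skin, and for AQP3, Fabp5, TREX2 and CDH3 the replicates lay close together. AQP3, the glycerol and water channel of keratinocytes, had 408 and 335 TPM in 3 bites skin against 971 and 842 in 2 bites skin, and 222 in the naive library (log2 difference -1.29, SE 0.32, limma adjusted p = 0.308). Fabp5, the epidermal fatty acid binding protein, had 1281 and 1004 TPM in 3 bites skin against 2199 and 2171 in 2 bites skin, and 995 in the naive library (log2 difference -0.95, SE 0.18, limma adjusted p = 0.307). TREX2, a DNA exonuclease of keratinocytes, had 46.9 TPM in each 3 bites library against 109 and 102 in 2 bites skin, and 60.9 in the naive library. In all 3 genes each 2 bites library lay above the naive one, and so did both 3 bites libraries for AQP3 and Fabp5 but not for TREX2. FOSL1, an AP-1 subunit of migrating keratinocytes, had 4.48 and 3.54 TPM in 3 bites skin against 22.9 and 14.7 in 2 bites skin, and 3.43 in the naive library. CDH3, the P-cadherin of basal cells, had 91.4 and 91.2 TPM in 3 bites skin against 132 and 142 in 2 bites skin. KRT14, the basal keratin, had 8499 and 9730 TPM in 3 bites skin against 14039 and 11327 in 2 bites skin. Its difference of -0.47 was 0.00 after quantile normalization.

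Kallikreins, serine proteases that help to shed the outer epidermis, had 4 of 6 tested members lower (66.7%) and 1 higher (16.7%). Over all tested genes these shares were 11.6% and 36.6%. This family too was chosen after its values were seen. KLK13 had 70.0 and 46.7 TPM in 3 bites skin against 124 and 81.7 in 2 bites skin, and 12.8 in the naive library. KLK7 had 1208 and 1220 TPM in 3 bites skin against 2274 and 1391 in 2 bites skin, and KLK4 had 1.28 and 1.46 TPM against 4.92 and 3.78. The epidermal differentiation list went both ways, with 4 of 19 higher (21.05%) and 5 lower (26.3%), or 2 higher and 7 lower after median-of-ratios scaling. CNFN, cornifelin of the cornified envelope, had 280 and 362 TPM in 3 bites skin and 583 and 427 in 2 bites skin. ABCA12, the lipid transporter of the epidermal barrier, was higher, with 62.5 and 99.2 TPM in 3 bites skin and 54.6 and 43.7 in 2 bites skin.

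Most genes of the basal keratinocyte list stood the other way on the deposited TPM. Of 13 basal keratinocyte genes, 9 were higher (69.2%) and 2 lower (15.4%), against 36.6% and 11.6% of all tested genes. The median was 0.50. After median-of-ratios scaling 5 were higher and 2 lower, the 2 lower ones being KRT14 and CDH3 with either scaling. DST, which encodes the hemidesmosome linker dystonin, had 264 and 518 TPM in 3 bites skin against 174 and 154 in 2 bites skin, and 236 in the naive library. COL17A1, a transmembrane collagen of hemidesmosomes, had 233 and 360 TPM in 3 bites skin against 192 and 160 in 2 bites skin. TP63, the transcription factor of basal cells, had 159 and 226 TPM in 3 bites skin against 126 and 110 in 2 bites skin. In all 3 genes 3 bites replicate 2 was the highest library, and without it the list's median was 0.18. KRT5, the partner keratin of KRT14, had 3748 and 5801 TPM in 3 bites skin against 3463 and 3335 in 2 bites skin and overlapped after median-of-ratios scaling.

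Most circadian clock genes stood higher in 3 bites skin. The clock is a feedback loop in which CLOCK and its partner activate the period and cryptochrome genes, whose products then repress it, with the nuclear receptors NR1D1 and NR1D2 as a second loop. In skin it is known to gate keratinocyte division and immune genes by time of day. Of 14 tested members 10 stood higher in 3 bites skin (71.4%, against 36.6% of all tested genes) and 0 lower. The median log2 difference was 0.74, and the counts were the same after median-of-ratios scaling (median 0.56). Leaving out any 1 of the 4 libraries gave medians of 0.52 to 0.90. With 10 of 14 members separated upward, only the size of these medians could vary, not their sign. At an unadjusted limma p under 0.05, 9 of the 14 were higher, against 8.54% of all tested genes. Members of 1 loop are not independent, and the list was chosen with earlier results of these data known. The count is therefore a description and no test.

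Genes under direct control of the loop are described first. DBP, a transcription factor whose level follows the clock, had 111 and 121 TPM in 3 bites skin against 57.8 and 55.7 in 2 bites skin, and 85.5 in the naive library (log2 difference 1.02, SE 0.21, limma adjusted p = 0.307). TEF, a factor of the same family, had 51.7 and 92.1 TPM in 3 bites skin against 28.7 and 29.7 in 2 bites skin, and 51.7 in the naive library (log2 difference 1.21, SE 0.29, limma adjusted p = 0.307). NR1D2, a repressor in the second loop, had 66.4 and 67.8 TPM in 3 bites skin against 36.1 and 28.1 in 2 bites skin, and 54.6 in the naive library (log2 difference 1.05, SE 0.22, limma adjusted p = 0.307). For all 3 genes the naive library lay above both 2 bites libraries and at or below the 3 bites ones. PER2, a period gene, had 7.92 and 8.45 TPM in 3 bites skin against 4.85 and 4.46 in 2 bites skin.

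Another 5 separated clock genes are named after their values were seen. HLF, another factor of the DBP family, had 6.94 and 11.8 TPM in 3 bites skin against 3.75 and 5.17 in 2 bites skin. NR1D1 had 21.2 and 33.0 TPM in 3 bites skin against 14.6 and 13.4 in 2 bites skin, and PER1 had 33.3 and 50.0 TPM against 25.0 and 21.8. Each of them was highest in 3 bites replicate 2. CRY1, a cryptochrome, had 28.4 and 30.9 TPM in 3 bites skin against 20.6 and 21.1 in 2 bites skin, and CLOCK had 10.6 and 11.4 TPM against 9.34 and 6.29. Of the tested clock genes 4 overlapped between the groups.

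**Figure D3:**
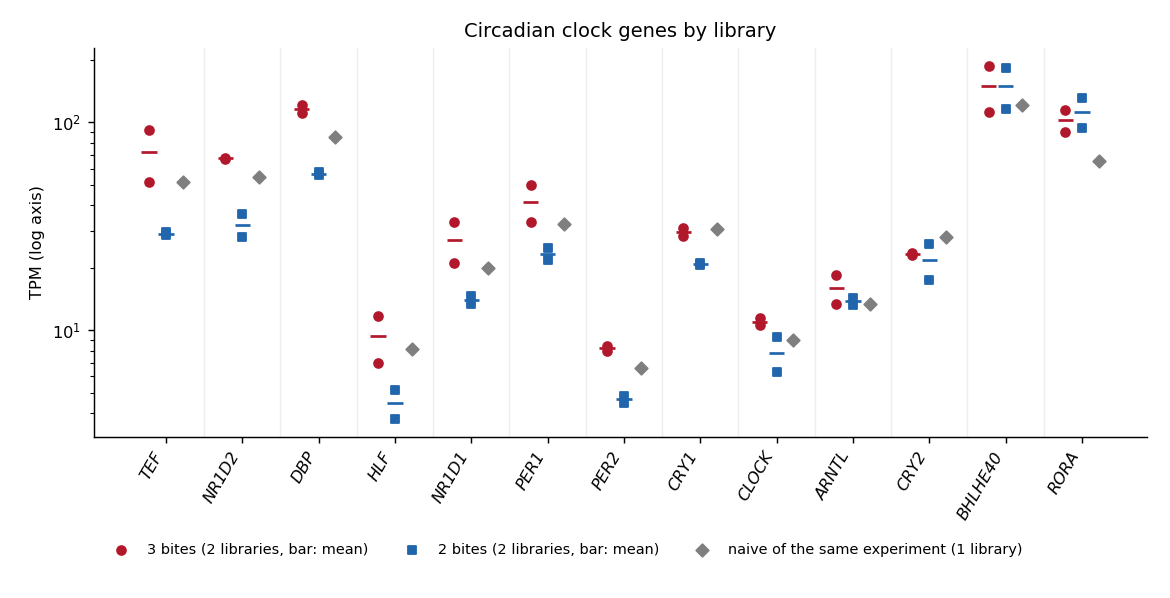
TPM on a log axis of 13 of the 14 tested circadian clock genes, with a point for each library and a bar at the mean of each group of 2. In the first 9 genes both 3 bites libraries lie above both 2 bites libraries, and in the last 4 the groups overlap.

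In the other experiment the clock genes spanned a range within each group. DBP had 71.7, 97.2 and 78.0 TPM in first exposure skin, 89.3, 76.8 and 115 in saliva immune skin and 74.8 and 65.6 in the naive libraries. NR1D2 had 40.9, 58.4 and 58.5 TPM in first exposure skin, 68.1, 60.9 and 52.8 in saliva immune skin and 65.3 and 77.1 in naive skin. Both 2 bites libraries were thus below every other library of the study for these 2 genes, and for DBP 3 bites replicate 2 was above every other one.

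**Figure D4:**
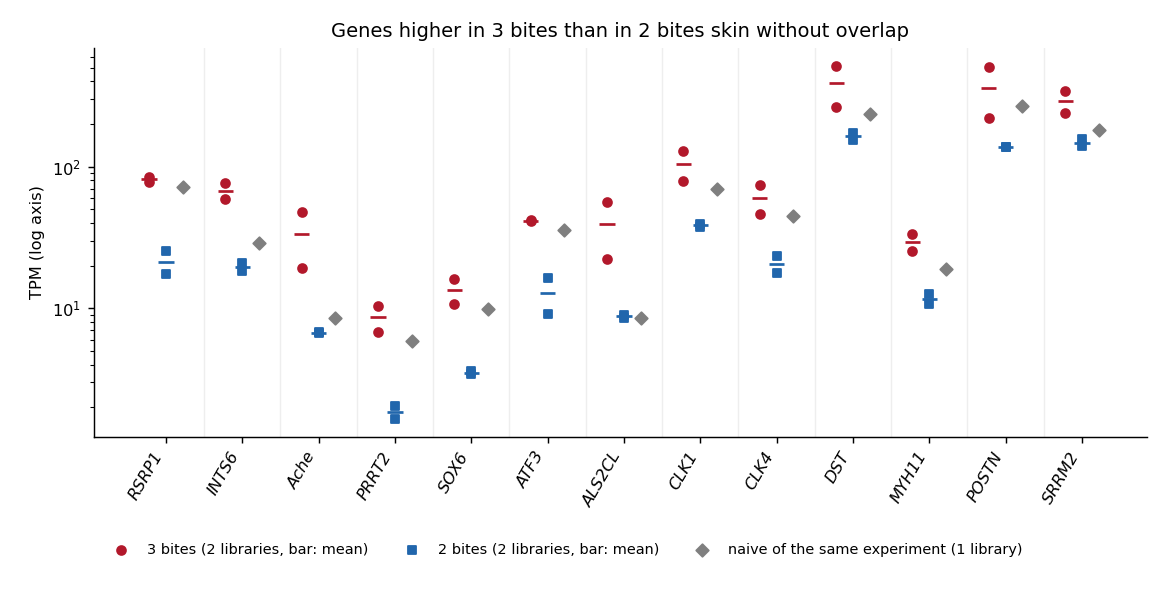
TPM on a log axis of 13 genes that stood higher in 3 bites skin without overlap, with a point for each library and a bar at the mean of each group of 2. The 2 bites libraries lie close together for most genes, and the naive library lies near the 3 bites level for RSRP1 and ATF3 and near the 2 bites level for ALS2CL and Ache.

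Of the RNA processing genes and small nucleolar RNAs that passed the filter, most also stood higher in 3 bites skin. Small nucleolar RNAs guide the chemical modification of ribosomal and spliceosomal RNA and in mammals mostly lie in introns of other genes. Of 317 small nucleolar and Cajal body RNA genes in the table, 117 were tested. Of these 69 were higher (59.0%) and 1 lower (0.85%), against 36.6% and 11.6% of all tested genes. Their median log2 difference was 0.84. Part of this split was set by the filter. SCARNA13, with 2.41 and 3.03 TPM in 3 bites skin and listed at 0 in both 2 bites libraries, passed through 3 bites skin only. How many members passed in that way was not counted. The counts were 64 and 2 after median-of-ratios scaling, and the medians 0.59 to 1.22 when a library was left out. Both used the same filtered members, so they do not remove that part. With 69 of 117 separated upward, the sign of those medians was also fixed. All 317 genes together took 0.0994% and 0.166% of summed TPM in 3 bites skin and 0.0554% and 0.0717% in 2 bites skin. In the naive library their share was 0.0763%. This family was chosen after its values were seen, and it held 15 of the 75 genes higher by at least 2-fold. TPM of such short genes is uncertain, since copies share sequence and reads of a host transcript can be counted to them.

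SNORD5, a box C/D small nucleolar RNA, had 19.6 and 23.4 TPM in 3 bites skin against 3.86 and 0.939 in 2 bites skin, and 15.2 in the naive library (log2 difference 2.87, SE 0.58, limma adjusted p = 0.307). SNORD79, of the same class, had 33.8 and 61.9 TPM in 3 bites skin against 10.7 and 7.60 in 2 bites skin, and 20.5 in the naive library. SNORA63, an H/ACA box RNA, had 19.8 and 21.6 TPM in 3 bites skin against 4.23 and 2.73 in 2 bites skin for ENSCPOG00000018627, one of 14 genes that carry the symbol. In these 3 genes the naive library lay between the groups. Within first exposure skin of the other experiment SNORD79 alone ranged over 7.92, 48.8 and 23.4 TPM.

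RSRP1, an arginine and serine rich protein, had 78.0 and 84.2 TPM in 3 bites skin against 17.3 and 25.2 in 2 bites skin, and 72.2 in the naive library (log2 difference 1.90, SE 0.36, limma adjusted p = 0.307). CLK1, a kinase that phosphorylates splicing factors, had 79.0 and 128 TPM in 3 bites skin against 37.4 and 39.5 in 2 bites skin, and 69.5 in the naive library. CLK4, a kinase of the same family, had 46.1 and 74.5 TPM in 3 bites skin against 17.8 and 23.3 in 2 bites skin, and 45.0 in the naive library. PRPF39, a splicing factor of the U1 particle, had 52.6 and 89.5 TPM in 3 bites skin against 25.2 and 31.2 in 2 bites skin, and 37.0 in the naive library. Splicing kinases and SR proteins, a list put together after the values were seen, had 23 of 31 members higher (74.2%) and 1 lower (3.23%). Over all tested genes these shares were 36.6% and 11.6%. The median of the list was 0.42, and the counts were 16 and 2 after median-of-ratios scaling. Without 3 bites replicate 2 that median was 0.26. CLK1 also varied within first exposure skin, with 41.8, 93.4 and 62.3 TPM.

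**Figure D5:**
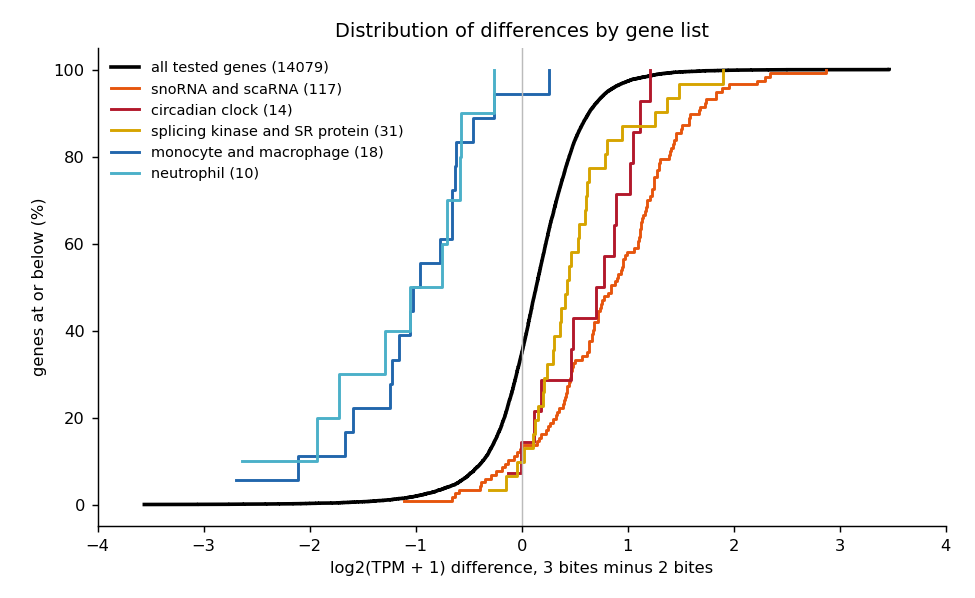
Cumulative share of genes, in percent, at or below each log2(TPM + 1) difference of 3 bites minus 2 bites skin, for all 14079 tested genes and 5 gene lists. The small nucleolar RNA and clock curves lie to the right of the curve for all genes, with medians of 0.84 and 0.74. The macrophage and neutrophil curves lie to its left, with medians of -0.99 and -0.90. The filter set part of the small nucleolar RNA split.

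INTS6, a subunit of the Integrator complex that processes small nuclear RNAs, had 58.7 and 76.9 TPM in 3 bites skin against 21.0 and 18.4 in 2 bites skin, and 28.9 in the naive library. Zinc finger genes with a ZNF symbol, most of them putative transcription factors and likewise grouped after seeing values, had 100 of 155 higher and 5 lower (median 0.35). That was 64.5% and 3.23%, against 36.6% and 11.6% of all tested genes. The split was 68 higher and 16 lower after median-of-ratios scaling. ZNF8 had 11.6 and 15.1 TPM in 3 bites skin against 4.51 and 6.19 in 2 bites skin. HOX genes, which record position along the body, had 7 of 17 higher (41.2%, near the 36.6% of all tested genes) and 0 lower, or 3 and 0 after median-of-ratios scaling.

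Other genes with wide gaps were of mixed roles. SOX6, a transcription factor of cartilage, muscle and nerve development, had 10.7 and 16.2 TPM in 3 bites skin against 3.42 and 3.58 in 2 bites skin, and 9.80 in the naive library (log2 difference 1.65, SE 0.28, limma adjusted p = 0.307). Ache, acetylcholinesterase, had 19.1 and 47.7 TPM in 3 bites skin against 6.63 and 6.76 in 2 bites skin, and 8.50 in the naive library. PREPL, a prolyl endopeptidase-like serine hydrolase, had the smallest limma p among genes with a symbol. It had 18.6 and 18.0 TPM in 3 bites skin against 8.58 and 8.45 in 2 bites skin, and 19.2 in the naive library (log2 difference 1.02, SE 0.16, limma adjusted p = 0.224). ALDH6A1, a mitochondrial enzyme of valine breakdown, had 44.7 and 45.9 TPM in 3 bites skin against 25.3 and 26.2 in 2 bites skin, and 40.4 in the naive library. Both enzymes had 3 bites levels near the naive one. On the lower side, PCP4, a calmodulin-binding peptide, had 2.44 and 3.19 TPM in 3 bites skin against 19.7 and 12.9 in 2 bites skin, and 4.00 in the naive library (log2 difference -2.16, SE 0.46, limma adjusted p = 0.307).

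Immediate early genes, which respond within minutes to stress, handling or growth signals, had 11 of 22 members higher (50%) and 2 lower (9.09%). Over all tested genes these shares were 36.6% and 11.6%. After median-of-ratios scaling the counts were 6 and 5. ATF3, a stress-induced factor, had 41.1 and 41.9 TPM in 3 bites skin against 9.15 and 16.4 in 2 bites skin, and 35.8 in the naive library (log2 difference 1.68, SE 0.46, limma adjusted p = 0.325). FOS, an AP-1 subunit, had 181 and 758 TPM in 3 bites skin against 104 and 71.2 in 2 bites skin, and 312 in the naive library. FOSL1, given above, stood the opposite way to both. The list's median of 0.40 was 0.15 without 3 bites replicate 2 and 0.72 without 3 bites replicate 1.

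Cell cycle genes had 13 of 24 higher (54.2%) and 1 lower (4.17%), against 36.6% and 11.6% of all tested genes. After median-of-ratios scaling, however, 4 were higher and 6 lower. KIF11, a motor of the mitotic spindle, had 39.4 and 38.9 TPM in 3 bites skin and 23.9 and 25.4 in 2 bites skin. RRM2, which makes the building blocks of DNA, had 21.7 and 24.2 TPM in 3 bites skin and 29.9 and 29.3 in 2 bites skin. Oxidative phosphorylation genes had 2 of 22 higher (9.09%) and 9 lower (40.9%), or 0 and 19 after that scaling. Ribosomal protein genes had 0 of 17 higher and 2 lower (11.8%), or 0 and 16. Hypoxia and glycolysis genes had 2 of 25 higher (8%) and 8 lower (32%). Among the lower was PFKP, a phosphofructokinase, with 86.0 and 84.4 TPM in 3 bites skin and 164 and 107 in 2 bites skin. Of the antioxidant list 4 of 20 were lower (20%) and 0 higher. SRXN1, a sulfiredoxin, had 10.1 and 8.32 TPM in 3 bites skin and 31.8 and 16.2 in 2 bites skin, with 10.7 in the naive library.

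Other tissues of the biopsy moved within and between the groups. Skeletal muscle genes took 1.63% and 0.853% of summed TPM in 3 bites skin, 0.728% and 0.930% in 2 bites skin and 2.55% in the naive library. Of 41 members 10 stood higher (24.4%) and 6 lower (14.6%), against 36.6% and 11.6% of all tested genes. The counts were 3 and 7 after median-of-ratios scaling. ATP2A1, the calcium pump of fast muscle fibres, had 1271 and 566 TPM in 3 bites skin against 327 and 417 in 2 bites skin, while CSRP3, a protein of the muscle Z-disc, had 9.61 and 12.4 TPM against 37.1 and 39.0. MYH11, the smooth muscle myosin, had 25.4 and 33.2 TPM in 3 bites skin against 12.5 and 10.6 in 2 bites skin, and 18.8 in the naive library (log2 difference 1.26, SE 0.32, limma adjusted p = 0.308). Hair follicle genes had 3 of 30 higher (10%) and 0 lower, with medians of -0.41 without 2 bites replicate 1 and 1.09 without 2 bites replicate 2. Of the 19 endothelial genes none separated, and of 29 fibroblast genes 1 was higher (3.45%) and 1 lower (3.45%). For these lists and the hair follicle list, both directions lay below the 36.6% higher and 11.6% lower of all tested genes. The part of these tissue shares in the immune and epidermal differences was not tested.

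MicroRNA genes had 10 of 27 tested members higher (37.0%) and 5 lower (18.5%), near the 36.6% and above the 11.6% of all tested genes. Their TPM was low, and for a gene of this kind it measures the precursor and not the mature microRNA. MIR223, the precursor gene of a microRNA abundant in neutrophils, had 0.280 TPM in 3 bites replicate 1 and was listed at 0 in 3 bites replicate 2, against 2.43 and 1.75 TPM in 2 bites skin. It passed the filter through the 2 bites libraries only. MIR214 had 3.64 and 2.07 TPM in 3 bites skin against 13.6 and 10.8 in 2 bites skin, and 1.67 in the naive library. The gene listed as cpo-let-7i was higher, with 5.71 and 5.15 TPM in 3 bites skin against 1.62 and 1.54 in 2 bites skin.

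Of the genes without overlap, 1168 carry no symbol in the deposited table. ENSCPOG00000037822 had 11.4 and 11.5 TPM in 3 bites skin against 0.861 and 2.19 in 2 bites skin, and ENSCPOG00000018630 had 35.3 and 51.2 TPM against 9.18 and 11.7. These genes and ENSCPOG00000031029, listed at 0 in both 3 bites libraries and at 1.84 and 1.75 TPM in 2 bites skin, shared the smallest limma adjusted p of 0.164. ENSCPOG00000031029 passed the filter through the 2 bites libraries only, so its separation is no evidence. ENSCPOG00000036528 had 10.1 and 9.31 TPM in 3 bites skin against 83.3 and 92.9 in 2 bites skin, and 0.976 in the naive library. ENSCPOG00000032796 had 1.39 and 1.82 TPM in 3 bites skin against 30.7 and 28.5 in 2 bites skin. In these last 2 genes the libraries of each group lay close to each other, with the gap of ENSCPOG00000032796 the widest of all lower genes. Both varied within groups of the other experiment, where the first exposure libraries had 24.3, 0.819 and 24.5 TPM of ENSCPOG00000032796 and 0.461, 8.79 and 59.9 TPM of ENSCPOG00000036528. On the higher side the widest gap was that of ENSCPOG00000004186, with 6.63 and 14.9 TPM in 3 bites skin. It was listed at 0 in both 2 bites libraries and at 5.12 TPM in the naive one, and at 0 in 2 of the 3 first exposure libraries. This gene passed the filter through the 3 bites libraries only, so its separation is no evidence.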

How the data were processed

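Total RNA of guinea pig skin was sequenced, and TPM values were used as the authors deposited them, a single file with a column per library, each summing to 1000000. The submitters' processing notes name DESeq, StringTie and Trimmomatic and give no version for any of them. An aligner, a genome build and an annotation release were not given in the sources used here, so no coordinates or sequences are printed. The depth of each library is unknown, and 2 libraries a group limit the precision. A TPM is a share, so a gain in 1 tissue lowers the rest.

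Differences (3 bites minus 2 bites) on log2(TPM + 1) came from a limma fit (limma 3.58.1 and R 4.3.3, with the data.table package in version 1.17.8) over all 13 libraries, with 5 groups and the experiment (title prefix) as terms, an intensity trend, 7 residual degrees of freedom and Benjamini-Hochberg adjustment over 14079 genes, two-sided. The fit was tested on simulated data. The log2(TPM + 1) scale understates the change of low genes. Gene lists were matched by symbol without regard to case.

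Members, rules and lists were chosen with earlier results of these data known, and 7 lists after these values were seen. Named are the 15 genes each way with the widest gap, a symbol and 5 TPM, up to 4 members of each list each way, the 10 each way with the smallest p and 2 genes each way without a symbol, all without overlap; some of them are not reported here. Other settings were another pseudocount, stricter and no filters, median-of-ratios and quantile scaling, other models and leaving out each library.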

Additional observations from a re-analysis of the deposited data

How the results depend on the processing

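Precision was limited by 2 libraries a group, by an unknown depth and by TPM being a share of each library. No paired analysis was possible because the labels give no number, animal or batch that ties a 3 bites library to a 2 bites library. limma called 0 genes in most of the 23 other fits. It called 1 gene, ENSCPOG00000031029 (lower, low TPM), without a filter (adjusted p = 0.0002443) and without the intensity trend (0.01077), and 0 to 4 when a library was left out, 4 (SLC45A2, TYR, MLANA and MRPS36, all lower) without 3 bites replicate 2 and 1 (GREM1) without 2 bites replicate 2. ENSCPOG00000031029 passed the main filter through the 2 bites libraries only. The 121 genes at least 2-fold apart were 253 with a pseudocount of 0.1 (176 higher, 77 lower). They were 70 at a mean of at least 5 TPM (44 higher, 26 lower). Median-of-ratios scaling gave 42 higher and 66 lower. That scaling also gave 3027 genes higher and 3601 lower without overlap. With 1 library left out, 1 stands against 2, so more genes separate by construction: 9918 to 11180 did not overlap (6736 to 7617 higher, 2844 to 3673 lower) and 298 to 811 were 2-fold apart (190 to 464 higher, 108 to 347 lower). Leaving out small RNA genes, an alternative chosen after seeing the data, left 6688 without overlap (5063 higher, 1625 lower) and 100 at least 2-fold apart. Differences that changed sign were, after median-of-ratios scaling, PRDM1 (-0.0883), TIMP3 (-0.0291), UCHL1 (-0.16), HSP90B1 (-0.0582), EDEM1 (-0.0116), ATP5F1A (-0.0638) and NDUFB5 (-0.0103), and after quantile normalization TGFA (-0.0008) and UCHL1 (-0.0556). KRT14 went to 0.00 after quantile normalization. The cause was not tested. Over named genes and settings, 5099 values kept direction and side of the threshold, 3 passed it and 10 changed sign or went to 0.00. Most settings could not change a direction, so the 5099 are no measure of stability. Leaving out a library of another group, or changing only the estimate of the spread, leaves each difference as it is. Named genes do not overlap, so leaving out a 3 bites or 2 bites library cannot reverse them. Of the list medians, 38 moved by more than the spread between replicates while 989 did not. The settings that leave each difference as it is also count among the 989.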
